A study of Oryza sativa with 12 samples.

Results

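Transcript levels of 6 rice (Oryza sativa) genes of the flavone and anthocyanin branches of flavonoid synthesis were examined, out of 37960 genes counted. They were picked by locus, not by their values, though earlier results of these data were known. The genes are CYP75B3 (Os10g0320100), CYP75B4 (Os10g0317900), CYP93G1 (Os04g0101400), DFR (Os01g0633500), ANS1 (Os01g0372500) and ANS2 (Os06g0626700). The names are those given with this choice of loci. The reference gene table used here holds 1 of the 6 names, ANS2, at a matching place on chromosome 6, and it does not pair the other 5 loci with a name.

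RNA-seq was performed on roots and leaves of seedlings aged 1 month, grown in Kimura nutrient solution at 28 °C under 12 h of light and 12 h of darkness. The groups were f3h root, wild-type (WT) root, f3h leaf and WT leaf, with 3 libraries each, 12 in all. The f3h line is labelled a knockdown, whereas the design text speaks of CRISPR mutants, and neither text states the targeted locus, the type of lesion or the number of independent lines. The titles of the WT samples name ZH11. Whether replicates were separate plants is not stated, so the p-values measure the spread between libraries, which may be technical.

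Flavonoid synthesis starts with chalcone synthase and chalcone isomerase, which yield the flavanone naringenin, and branches there. Flavone synthase turns flavanones into flavones, which in rice lead to tricin, a flavone found free, as glycosides and in grass lignin. Flavanone 3-hydroxylase, after which the f3h line is named, opens the other branch to dihydroflavonols, from which dihydroflavonol reductase and anthocyanidin synthase make anthocyanidins. Flavonoid 3'-hydroxylases add a hydroxyl group to the B ring and can act in both branches.

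Library totals were 23740780 to 27917598 counts in f3h root, 27317632 to 29687320 in WT root, 32314230 to 37821918 in f3h leaf and 31171931 to 35021116 in WT leaf. Replicate 1 of WT leaf stood apart, with a chi-square per degree of freedom of 57.5 and 61.1 against its partners, where every other pair of replicates lay between 5.42 and 7.09. Leaf marker genes (5 photosynthesis genes) summed to 63.6 to 67.6 CPM (each count divided by its library total, on the usual CPM scale) in f3h root and 5.15 to 5.91 CPM in WT root, against 29250 to 29610 CPM in f3h leaf and 33680 to 41160 CPM in WT leaf. Root markers (7 genes) summed to 3822 to 3846 CPM in f3h root and 4243 to 4419 CPM in WT root, and to at most 17.1 CPM in leaves, where 2 of them had no count in WT leaf. Of 4 loci entered as flavanone 3-hydroxylase genes without a check of their names, Os10g0536400 averaged 33.4 CPM in f3h root, 35.3 in WT root, 85.3 in f3h leaf and 53.7 in WT leaf, and Os03g0122300 averaged 73.9, 67.9, 23.9 and 35.7 CPM in the same order. Os04g0667200 and Os04g0662600 averaged at most 1.13 CPM in every group. In root, Os04g0662600 nevertheless had counts in WT only: its WT replicates gave 2, 20 and 17 counts, a sum of 39, whereas f3h root gave 0. It was too low to be tested there, and in leaf it summed to 2 in f3h and 0 in WT. Os04g0667200 summed to 72 in f3h root and 96 in WT root. An RNA level does not check a CRISPR edit.

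Of the 6 genes, DFR, ANS1 and ANS2 had hardly any reads. CYP75B3, CYP75B4 and CYP93G1 had counts in all 12 libraries. They were low to moderate transcripts: CYP75B4, the most counted of them, stood above 32.6% of the genes with reads in f3h root, 53.2% in WT root, 61.0% in f3h leaf and 48.2% in WT leaf. DFR, ANS1 and ANS2 together gave 18 counts out of 368818291.

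**Figure D1:**
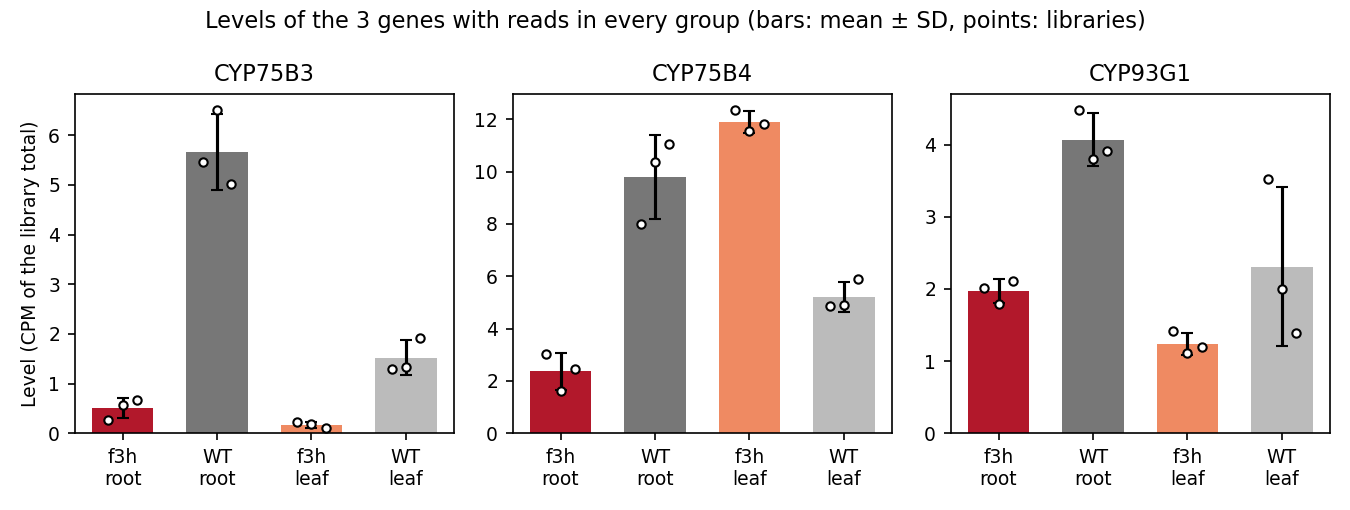
Level of CYP75B3, CYP75B4 and CYP93G1 in CPM of the library total in f3h root, WT root, f3h leaf and WT leaf (bars are means, error bars SD, points the 3 libraries of a group). CYP75B4 is the gene whose f3h bar lies below WT in root and above WT in leaf.

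CYP75B4, a flavonoid 3'-hydroxylase that in rice also hydroxylates chrysoeriol on the way to tricin, fell in f3h root and rose in f3h leaf. In root it had 78, 45 and 58 counts (3.02, 1.61 and 2.44 CPM) in f3h and 219, 283 and 328 counts (7.98, 10.4 and 11.1 CPM) in WT. In leaf it had 455, 373 and 448 counts (12.4, 11.5 and 11.8 CPM) in f3h and 151, 172 and 199 counts (4.84, 4.91 and 5.88 CPM) in WT. In each organ every f3h library lay outside the WT range, on the low side in root and on the high side in leaf. The means were 2.36 ± 0.709 CPM in f3h root and 9.80 ± 1.61 CPM in WT root (SD, n = 3 each), and 11.9 ± 0.421 CPM in f3h leaf and 5.21 ± 0.582 CPM in WT leaf.

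The log2 fold change of CYP75B4, f3h over WT, was -2.09 ± 0.23 in root (± SE, edgeR quasi-likelihood test, Benjamini-Hochberg adjusted p = 1.31e-08) and 1.22 ± 0.15 in leaf (edgeR adjusted p = 0.000301), that is, a level 4.25-fold lower in f3h root and 2.33-fold higher in f3h leaf. The difference between these effects, root minus leaf, was -3.32 ± 0.30 on the log2 scale in an interaction model of all 12 libraries (edgeR adjusted p = 8.6e-07). CYP75B4 was the only one of the 3 tested enzymes with such a difference past the threshold of 0.05, where 33.4% of 26328 genes had one and 17.4% had a negative one. Its direction in each organ and its calls held under every alternative tried, with log2 values of -2.31 to -1.87 in root and 1.18 to 1.33 in leaf.

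CYP75B3, a flavonoid 3'-hydroxylase gene on the same chromosome 10, fell in both organs of the f3h line. It had 7, 16 and 16 counts (0.271, 0.573 and 0.674 CPM) in f3h root and 150, 178 and 149 counts (5.47, 6.52 and 5.02 CPM) in WT root. In leaf it had 8, 6 and 4 counts (0.218, 0.186 and 0.106 CPM) in f3h and 40, 47 and 65 counts (1.28, 1.34 and 1.92 CPM) in WT. No f3h library reached the lowest WT library of its organ. The log2 fold change was -3.51 ± 0.35 in root (edgeR adjusted p = 1.34e-09), 11.4-fold lower, and -3.11 ± 0.50 in leaf (edgeR adjusted p = 0.00118), 8.64-fold lower.

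Among all genes tested, 0.936% had a log2 fold change as low as that of CYP75B3 in root and 1.00% in leaf. The difference of the root and leaf effects was -0.40 on the log2 scale with a 95% interval of -1.72 to 0.92 (edgeR adjusted p = 0.678), which leaves room for a difference of either sign. CYP75B3 passed the filter on low counts through its WT libraries, and it was called without that filter too (edgeR adjusted p = 7.2e-22 in root and 0.000536 in leaf). The f3h values rest on 39 counts over 3 root libraries and 18 over 3 leaf libraries, so the pooled f3h levels have exact Poisson 95% intervals of 0.358 to 0.688 CPM in root and 0.0998 to 0.266 CPM in leaf, which cover counting error only.

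CYP93G1, the flavone synthase that converts flavanones to flavones, fell in f3h root, and no call could be made in leaf. It had 52, 50 and 50 counts (2.02, 1.79 and 2.11 CPM) in f3h root and 123, 104 and 116 counts (4.48, 3.81 and 3.91 CPM) in WT root, with no overlap. The root log2 fold change was -1.07 ± 0.29 (edgeR adjusted p = 0.00275), 2.11-fold lower. In leaf it had 52, 36 and 45 counts (1.41, 1.11 and 1.19 CPM) in f3h and 110, 70 and 47 counts (3.53, 2.0 and 1.39 CPM) in WT, so that the lowest WT library lay inside the f3h range. The leaf log2 fold change was -0.86 with a 95% interval of -1.71 to -0.00087 (edgeR adjusted p = 0.108, unadjusted p = 0.0498).

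The leaf value of CYP93G1 turned on single WT libraries. It was -0.42 (edgeR adjusted p = 0.414) without WT leaf replicate 1, the library that stood apart, and -1.11 (edgeR adjusted p = 0.0458) without WT leaf replicate 3. The difference of its root and leaf effects was -0.22 on the log2 scale, with a 95% interval of -1.22 to 0.77 (edgeR adjusted p = 0.774).

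In root, CYP75B3, CYP75B4 and CYP93G1, the 3 enzymes that could be tested, were called lower in f3h, where 50.3% of 24583 genes were called, 25.4% lower and 24.9% higher. In leaf, 1 of 3 was called lower and 1 higher, where 36.5% of 22438 genes were called, 18.6% lower and 17.9% higher. With 3 genes, 2 of which may share reads, these counts describe the enzymes and no more. Leaf markers were called higher in f3h root (4 of 4 tested) and root markers lower (6 of 7), while in leaf 1 of 5 leaf markers was called higher and 1 lower. The part of these shifts in the values of the 3 enzymes was not tested. In whole organs, fewer cells that express a gene and less RNA per cell cannot be told apart.

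**Figure D2:**
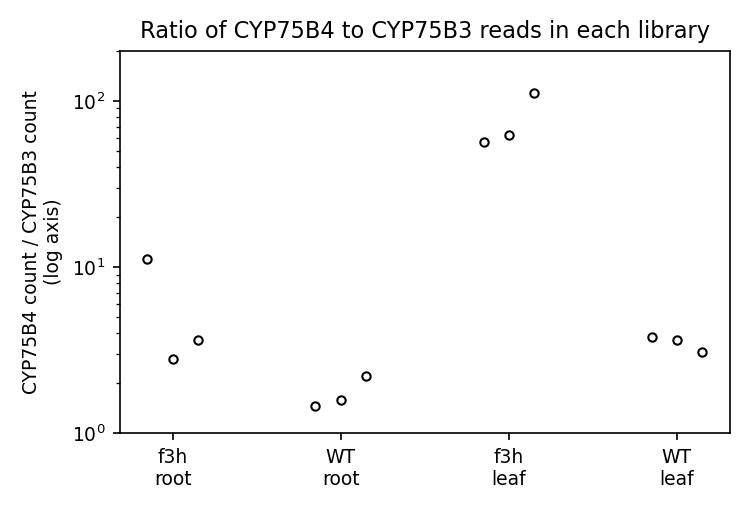
CYP75B4 counts divided by CYP75B3 counts in each library (log axis) for f3h root, WT root, f3h leaf and WT leaf. The f3h leaf libraries lie between 56.9 and 112, and all others at or below 11.1.

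The counts of the pair were also set against each other within each library, which needs no scaling between libraries. The ratio of CYP75B4 to CYP75B3 counts was 11.1, 2.81 and 3.63 in f3h root and 1.46, 1.59 and 2.20 in WT root. In leaf it was 56.9, 62.2 and 112 in f3h and 3.78, 3.66 and 3.06 in WT. All f3h libraries thus lay above the WT libraries of the same organ, in root closely so for replicate 2. The f3h ratios rest on 4 to 16 CYP75B3 counts per library and carry the corresponding counting error. A two-sided exact permutation test of 3 against 3 libraries cannot go below p = 0.1, so none was run. Both genes belong to the CYP75B family, and how far their reads can be told apart was not tested.

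The loci with identifiers between CYP75B4 and CYP75B3 were inspected for the same shifts, a choice made after the values of the pair had been seen. There are 5, of which 2 had no count in any library. Os10g0318900 was lower in f3h root (3.84 ± 0.956 CPM, against 6.11 ± 1.31 CPM in WT root, log2 -0.70 ± 0.24, edgeR adjusted p = 0.0173) and in f3h leaf (1.15 ± 0.357 CPM, against 3.39 ± 0.710 CPM in WT leaf, log2 -1.52 ± 0.31, edgeR adjusted p = 0.00447). Os10g0318000 averaged 15.4 CPM in f3h root and 16.8 CPM in WT root (edgeR adjusted p = 0.337), and 10.3 CPM in f3h leaf and 16.1 CPM in WT leaf (edgeR adjusted p = 0.0612). Os10g0318700 had 65 counts over f3h root and 103 over WT root (edgeR adjusted p = 0.451), and 2 over f3h leaf and 24 over WT leaf, too few for a test there. The opposite effects in root and leaf seen for CYP75B4 were not called for any of these (interaction, edgeR adjusted p = 0.147 to 0.219).

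**Figure D3:**
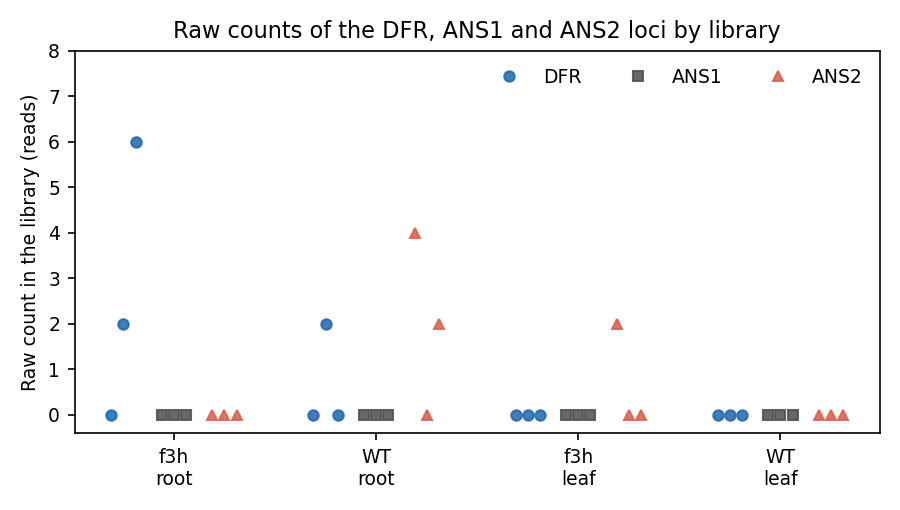
Raw read counts of DFR, ANS1 and ANS2 in every library, by group (f3h root, WT root, f3h leaf, WT leaf). No library holds more than 6 counts of any of the 3 genes, and ANS1 has 0 in all 12.

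DFR, dihydroflavonol reductase, the first step that leads only towards anthocyanins and other flavan pigments, had 0, 2 and 6 counts in f3h root and 0, 2 and 0 in WT root. It had no count in any leaf library, which allows a level of up to 0.0281 CPM in f3h leaf and 0.0300 CPM in WT leaf (3 counts of the group total). The pooled root ratio of f3h to WT was 4.36 (95% counting interval 0.870 to 42.2), so a difference between the root groups was not detectable at this depth.

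ANS1, an anthocyanidin synthase gene, had no count in any of the 12 libraries, which allows a level of up to 0.00813 CPM over the whole set. ANS2, the other anthocyanidin synthase gene, had 0 counts in each f3h root library and 4, 0 and 2 in WT root. It had 2, 0 and 0 counts in f3h leaf and 0 in each WT leaf library. The pooled WT root level of ANS2 had an exact Poisson 95% interval of 0.0261 to 0.155 CPM, and that of f3h root ran from 0 to 0.0476 CPM. Overlap of such intervals is no test of a difference. The WT root level was 1.835 times the level that 3 counts would give in f3h root. Fitted without the filter on low counts, ANS2 was not called between the root groups (edgeR adjusted p = 0.206). None of DFR, ANS1 and ANS2 passed the filter in any comparison. Fitted without it, DFR and ANS2 had edgeR adjusted p-values of 0.105 or more in every comparison in which they had a count.

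The smallest counts are also coarse. Of the counts from 1 to 6, 63.2% to 69.0% were even in each library, and of the 10 counts from 1 to 8 among the 6 genes 9 were even. Whether both ends of a read pair were counted is not stated, and the counting intervals may be too narrow.

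The organs were compared within each genotype, with a call at an adjusted p under 0.05 and a log2 size of at least 1. In WT, CYP75B3 was higher in root, at 5.67 ± 0.768 CPM, than in leaf, at 1.52 ± 0.353 CPM (log2 1.33 ± 0.28, edgeR adjusted p = 0.00196). This was the 1 call among 3, where 52.8% of 25229 genes were called, 29.9% higher in root and 22.9% lower. CYP75B4 averaged 9.80 ± 1.61 CPM in WT root, against 5.21 ± 0.582 CPM in WT leaf (log2 0.34, 95% interval -0.11 to 0.80, edgeR adjusted p = 0.151). CYP93G1 averaged 4.07 ± 0.366 CPM in WT root, against 2.31 ± 1.10 CPM in WT leaf (log2 0.26, 95% interval -0.53 to 1.05, edgeR adjusted p = 0.521).

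In the f3h line the order of the organs differed for CYP75B4. It was lower in f3h root, at 2.36 ± 0.709 CPM, than in f3h leaf, at 11.9 ± 0.421 CPM (log2 -3.00 ± 0.21, edgeR adjusted p = 2.99e-09), where 52.8% of 24822 genes were called, 24.0% lower in root and 28.8% higher. CYP93G1 averaged 1.97 ± 0.162 CPM in f3h root, against 1.24 ± 0.156 CPM in f3h leaf (log2 0.01, 95% interval -0.76 to 0.77, edgeR adjusted p = 0.989). CYP75B3 averaged 0.506 ± 0.210 CPM in f3h root, against 0.170 ± 0.0576 CPM in f3h leaf, and was too low to pass the filter (edgeR adjusted p = 0.387 without it).

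Organ comparisons depended on the scaling. The log2 fold changes above use TMM scaling, while CPM use the library total, and library totals without TMM shift the median gene by 0.57 (WT) and 0.66 (f3h) towards root. With them, 70.7% of the calls in WT and 70.9% in f3h were higher in root, where TMM gave 56.7% and 54.5%. For CYP75B4 in WT the log2 fold change, root over leaf, was 0.56 with upper quartile scaling (edgeR adjusted p = 0.0302) and 0.91 with library totals (edgeR adjusted p = 0.00231), both past the p threshold and under the size limit. Between genotypes the same change moved the median gene by less than 0.1.

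By mean CPM, CYP75B3 ran from WT root through WT leaf and f3h root down to f3h leaf, with no overlap between neighbours. The orders given here use library totals and cross organs, and TMM scaling can change them and their overlaps. For CYP75B3, f3h root and f3h leaf did not differ past the threshold (edgeR adjusted p = 0.387 without the filter). CYP75B4 ran from f3h leaf through WT root and WT leaf down to f3h root. On library totals its closest neighbours were f3h leaf and WT root. Their nearest libraries stood at 11.5 and 11.1 CPM, a gap smaller than the SD of WT root. TMM scaling raises leaf levels against root, so this near tie between organs depends on the scaling. CYP93G1 ran from WT root through WT leaf and f3h root down to f3h leaf, and WT leaf overlapped with f3h root and with f3h leaf.

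For correlations, log2 CPM were scaled by TMM over all 12 libraries, unlike the CPM levels printed here. On that scale CYP75B3 and CYP93G1 had a Pearson r of 0.799, CYP75B3 and CYP75B4 0.048, and CYP75B4 and CYP93G1 0.134. These values describe 4 groups that share organ, genotype and depth. The loci most like CYP75B3 by the same measure were Os03g0264400 (r = 0.984) and Os01g0949300 (r = 0.978), among 20425 genes whose mean log2 CPM reached 1. Those most like CYP75B4 were Os05g0516700 (r = 0.965), with means of 3.35 CPM in f3h root, 12.9 in WT root, 13.9 in f3h leaf and 8.41 in WT leaf, and Os10g0530750 (r = 0.964). For CYP93G1 they were Os06g0255300 (r = 0.975) and Os01g0646800 (r = 0.966).

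**Figure D4:**
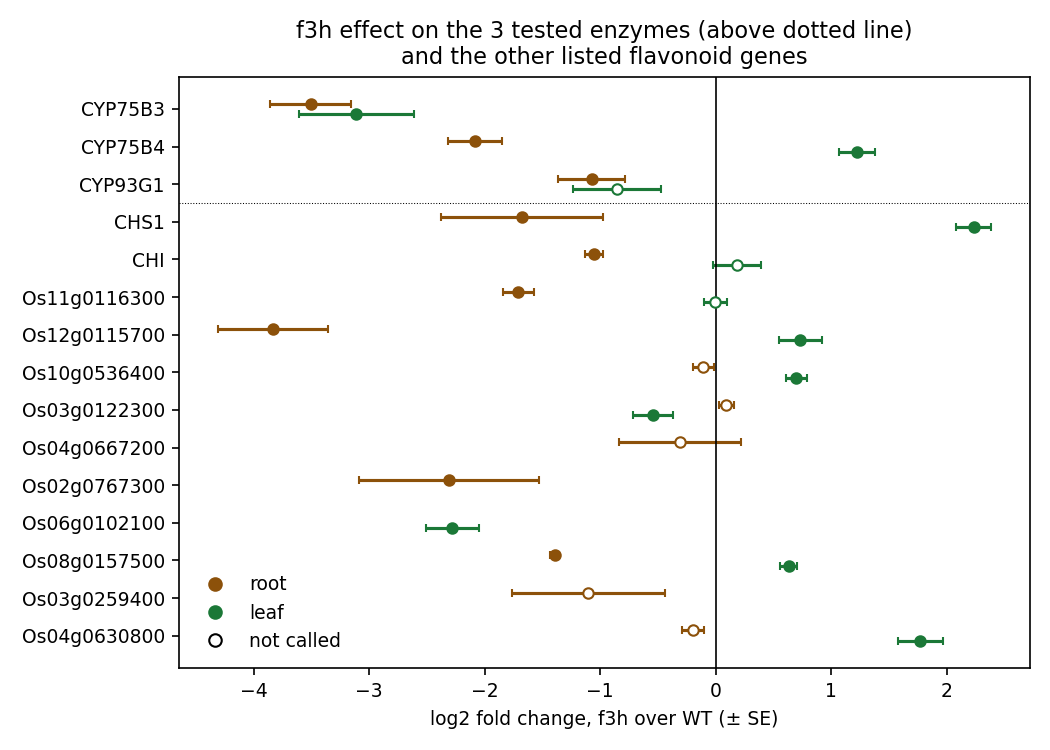
Log2 fold change of f3h over WT (± SE) in root (brown) and leaf (green) for the 3 tested enzymes, above the dotted line, and for the other listed flavonoid genes; open symbols did not pass the threshold. Every called root symbol lies left of 0, while called leaf symbols lie on both sides.

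A list of 14 other loci of flavonoid synthesis was set beside the 6 enzymes. It was chosen with earlier results of these data known, so its counts describe these loci and no more. In f3h root 6 of the 11 tested members were called lower and 0 higher, with a median log2 fold change of -1.10. Of all genes tested, 25.4% were called lower and 24.9% higher, with a median of 0.01. Among the 6 loci called lower, CHS1 (Os11g0530600), Os12g0115700 and Os02g0767300 passed the filter on low counts through their WT libraries. Such a passage favours lower calls. In f3h leaf 5 of 9 were called higher and 2 lower, with a median of 0.63, where 17.9% of all genes tested were called higher and 18.6% lower, with a median of -0.02. The names of CHS1, CHS2 and CHI were found in the reference at matching places, and the other members are given by locus only.

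CHS1 (Os11g0530600), a chalcone synthase gene of the first step, rose in f3h leaf to 24.9 ± 1.48 CPM, against 5.43 ± 0.942 CPM in WT leaf (log2 2.23 ± 0.15, edgeR adjusted p = 6.64e-06). In root it averaged 0.245 ± 0.0111 CPM in f3h, against 0.779 ± 0.383 CPM in WT, a call at the threshold (edgeR adjusted p = 0.0479) that 11 of 13 alternatives did not make. CHI (Os03g0819600), chalcone isomerase, fell in f3h root to 52.3 ± 5.55 CPM, against 106 ± 9.24 CPM in WT root (log2 -1.05 ± 0.08, edgeR adjusted p = 1.28e-12), and was not called in leaf (edgeR adjusted p = 0.531). CHS2 (Os07g0214900) had 1 count over the f3h root libraries and 18 over the WT root libraries, a pooled ratio of 0.0606 (counting interval 0.00145 to 0.384), and none in leaves.

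Like CYP75B4, CHS1, Os12g0115700 and Os08g0157500 were called lower in f3h root and higher in f3h leaf, CHS1 in root only at the threshold. By sign alone CHI, Os10g0536400 and Os04g0630800 did the same, each called in 1 organ only. Os08g0157500 did not share the order of organs that CYP75B4 had in the f3h line. Os12g0115700 had 2 to 10 counts in f3h root libraries and 80 to 136 in WT root (log2 -3.83 ± 0.48, edgeR adjusted p = 8.5e-08), and 189 to 256 in f3h leaf and 108 to 148 in WT leaf (log2 0.73 ± 0.19, edgeR adjusted p = 0.0144, up to 0.0566 among the alternatives). Os08g0157500 averaged 488 ± 2.79 CPM in f3h root and 1256 ± 77.2 CPM in WT root (log2 -1.40 ± 0.04, edgeR adjusted p = 1.84e-22), and 235 ± 1.71 CPM in f3h leaf and 155 ± 2.80 CPM in WT leaf (log2 0.63 ± 0.08, edgeR adjusted p = 0.000223). Os06g0102100, by contrast, fell in f3h leaf to 1.82 ± 0.248 CPM, against 9.05 ± 1.82 CPM in WT leaf (log2 -2.28 ± 0.23, edgeR adjusted p = 6.95e-05), and had 2 counts over f3h root and 37 over WT root.

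The remaining calls in f3h root were Os11g0116300 (log2 -1.71 ± 0.14, edgeR adjusted p = 8.51e-12) and Os02g0767300 (log2 -2.31 ± 0.78, edgeR adjusted p = 0.0148), both lower. In f3h leaf they were Os04g0630800 (log2 1.77 ± 0.19, edgeR adjusted p = 0.000123) and Os10g0536400 (log2 0.70 ± 0.09, edgeR adjusted p = 0.000267), higher, and Os03g0122300 (log2 -0.55 ± 0.17, edgeR adjusted p = 0.0338), lower. The call for Os03g0122300 was lost without f3h leaf replicate 1, 2 or 3, and that for Os02g0767300 was missed by 4 of 13 alternatives (edgeR adjusted p from 0.00192 to 0.13). The log2 fold change of Os02g0767300 was -1.70 without f3h root replicate 2 and -3.75 without f3h root replicate 3.

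Between the organs, 5 of 12 tested list members were called higher and 3 lower in WT root than in WT leaf, where 29.9% of all genes were called higher and 22.9% lower. In f3h root against f3h leaf 2 of 11 were called higher and 6 lower, where 28.8% of all genes were called higher and 24.0% lower. Among the WT calls, Os04g0667200, Os03g0259400 and Os02g0767300 passed the filter on low counts through root, and Os06g0102100 through leaf. Among the f3h calls, CHS1, Os12g0115700 and Os06g0102100 passed through leaf, and Os04g0667200 through root. Such a passage favours calls in the direction of that organ, so these counts describe the loci and no more. Of 5 further loci listed as regulators of the anthocyanin branch, whose names could not be checked, 2 had no count in any library, and Os04g0557500 had 2 counts, both in 1 WT root library. Os03g0410000 had 27 counts over f3h root, 116 over WT root and none in leaves (f3h over WT in root, log2 -1.95 ± 0.72, edgeR adjusted p = 0.026, missed by 5 of 13 alternatives, adjusted p from 0.000691 to 0.15). Os03g0410000 passed the filter on low counts through its WT root libraries, which favours a lower call. Its log2 fold change was -1.37 without f3h root replicate 1 and -3.61 without f3h root replicate 3, the libraries with 0 and 21 counts. Os02g0682500 was lower in f3h root (26.6 ± 0.551 CPM, against 31.3 ± 1.74 CPM in WT root, edgeR adjusted p = 0.0252, up to 0.138 among the alternatives) and in f3h leaf (10.7 ± 1.57 CPM, against 16.2 ± 2.24 CPM in WT leaf, edgeR adjusted p = 0.018, up to 0.0806 among the alternatives).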

How the data were processed

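The table the authors deposited holds raw counts, whole and not normalized, in 12 columns that each matched 1 sample. The submitters' processing notes name fastp, HISAT2, featureCounts and DESeq; which versions, genome build, annotation and strand setting they used is not given in the sources used here. Rows comprised 37849 Os loci and 111 other names. Levels are CPM of the library total. Counts were tested with edgeR 4.0.16 (R 4.3.3) on the whole table: filterByExpr (minimum count 10), TMM, quasi-likelihood test, Benjamini-Hochberg adjustment, threshold 0.05. Each genotype or organ comparison used its 6 libraries, and the interaction all 12. Standard errors came from the F statistic. Alternatives used DESeq2 1.42.0, limma 3.58.1 (voom), other scalings and filters, a replicate block and left-out libraries. The procedure was tested on simulated data. All 6 genes are named, and other listed genes are named where called. Likeness took the 2 highest Pearson correlations of TMM-scaled log2 CPM (prior count 2). Names passed when the reference (ASM3414082v1) held them on the right chromosome within 10% of the expected place. Genes and lists were chosen with earlier results of these data known.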

Additional observations from a re-analysis of the deposited data

Results flagged for a closer look

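By the interaction test of all 12 libraries, the f3h effect differed between root and leaf for 1 of the 3 enzymes tested. It did so for 9 of the 12 other listed loci tested, where 33.4% of 26328 genes had such a difference. The list was chosen with earlier results of these data known, so this share describes the listed loci and is no test of the pathway. For CYP75B4 the difference, root minus leaf, was -3.32 on the log2 scale: the gene was lower in all f3h root libraries than in any WT root library and higher in all f3h leaf libraries than in any WT leaf library. Among the other loci it was -3.90 for CHS1 (Os11g0530600), -1.24 for CHI (Os03g0819600), -1.71 for Os11g0116300, -4.58 for Os12g0115700, -2.03 for Os08g0157500, -1.98 for Os04g0630800 and -0.81 for Os10g0536400. It was 0.63 for Os03g0122300, the 1 positive value (past the threshold in 13 of 18 alternatives). For Os03g0259400 it was -4.26, a size that rests on 2 counts in WT leaf and is no bound (edgeR adjusted p = 0.0468, past the threshold in 5 of 18 alternatives, with values of -7.08 without WT leaf replicate 2 and -3.08 without f3h leaf replicate 3).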

How the results depend on the processing

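Of the 14 tests of CYP75B3, CYP75B4 and CYP93G1 over 5 comparisons, 13 gave the same call under every alternative; the exception was CYP93G1 in leaf, called without WT leaf replicate 3. CYP75B4, root over leaf in WT, passed the p threshold with upper quartile scaling (0.56, edgeR adjusted p = 0.0302) and library totals (0.91, edgeR adjusted p = 0.00231) but not the size limit. Near zero, the sign of CYP93G1 turned: root over leaf in f3h was -0.00030 with limma voom and -0.065 to 0.11 with 1 library left out, root over leaf in WT was -0.0013 to 0.67, and the difference of its f3h effects was -0.66 to 0.013. With 1 library left out, 1 to 2 of the enzymes were called lower in f3h leaf, 1 to 2 of the other listed loci were called lower in leaf, and 0 to 1 had a positive difference of effects. With library totals, an alternative chosen after seeing the data, 4 other listed loci rather than 2 were higher in f3h root than in f3h leaf. The replicate block gave CYP75B4 a difference of effects of -3.33 (edgeR adjusted p = 5.92e-06) and changed no call of the 3 enzymes. Same-numbered libraries did not deviate together (r from -0.035 to 0.047). No sign of pairing was thus seen, which does not show that these libraries had separate origins. Causes of these changes were not tested. Depth limits DFR, ANS1, ANS2 and the f3h values of CYP75B3.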
